A study of Mus musculus with 6 samples.

Results

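The tumor necrosis factor (TNF) superfamily, its receptors and the proteins that carry their signal were examined in cultured mouse aortic smooth muscle cells (MASMCs) treated with angiotensin II (Ang II). The family was taken as the protein-coding genes whose symbol begins with Tnfsf or Tnfrsf, the Traf1 to Traf7 adaptor genes, Tnf, Lta, Ltb, Ltbr, Fas and Fasl, and a fixed set of signaling genes (Birc2, Birc3, Ripk1, Ripk3, Mlkl, Tradd, Fadd, Cflar, Tnfaip2, Tnfaip3, Tnip1 and Map3k14). This gave 55 of the 41721 genes in the count table. Cells of 2 genotypes were compared, with 3 libraries each. Pdk4fl/fl cells carry the pyruvate dehydrogenase kinase 4 gene with loxP sites around some of its exons and are the controls without the Cre. Pdk4SMKO cells carry the same floxed alleles together with a tamoxifen-inducible Cre driven by the smooth muscle Myh11 promoter. Per the study's methods, mice of both genotypes received tamoxifen, the abdominal aortas were taken at 10 weeks of age and digested with collagenase, the cells were used at passages 4 to 8 after serum starvation, and Ang II was given at 1 μM for 48 h. No untreated library was part of the comparison, so each value describes a genotype under Ang II.

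Most TNF superfamily ligands are trimers on the cell surface that can be shed, and they bind receptors of the TNF receptor superfamily. Receptors with a death domain, such as the type 1 TNF receptor and Fas, recruit the adaptors TRADD or FADD, while receptors without one bind TRAF proteins directly. TRAF2, the ubiquitin ligases cIAP1 and cIAP2 (encoded by Birc2 and Birc3) and the kinase RIPK1 then build the complex that activates NF-κB, and NF-κB in turn induces inhibitors of its own pathway, among them Tnfaip3 and Tnip1. When that complex fails, the same receptors can signal to caspase-8 or, through RIPK3 and MLKL, to necroptosis. In the aortic wall this family is known for inflammatory activation of smooth muscle cells and for their death.

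The libraries held 16526044 to 22481670 reads on genes. Across genes, the log2 values of libraries correlated at 0.985 or more within a genotype and at 0.781 or less between genotypes. The floxed gene Pdk4 had 570, 639 and 421 counts in Pdk4fl/fl libraries and 110, 182 and 141 in Pdk4SMKO libraries (log2 fold change -2.34, SE 0.22, adjusted p = 4.49e-06). The Cre transgene is Y-linked and the study used male mice, but Xist, the RNA of the inactive X chromosome of female cells, had 3, 4 and 5 counts in Pdk4fl/fl libraries and 610, 347 and 321 in Pdk4SMKO libraries. Myh11, the gene that defines mature smooth muscle and drives the Cre, had 8, 10 and 10 counts against 62, 44 and 46. Acta2, Lmod1 and Des were also higher (log2 fold change 1.59, 2.34 and 2.83), while Tagln, Cnn1 and Smtn were lower (-2.26, -1.50 and -2.28) and Myocd was not called. The 8 smooth muscle markers summed to 785 to 811 CPM (counts scaled to a common library total by the TMM method) in Pdk4fl/fl cells and to 723 to 954 in Pdk4SMKO cells. The 8 fibroblast markers summed to 1109 to 1478 CPM against 7942 to 10621.0 CPM, and the 8 mesothelial markers to 74.2 to 100.3 against 736 to 1359. Most of the fibroblast sum in Pdk4SMKO cells came from Col1a1 and Col1a2, with means of 5901 and 3212 CPM. Of the fibroblast markers, 5 were higher, Dpt was lower (log2 fold change -1.02), and Pdgfra and Pi16 were not called. Of the 8 macrophage markers, C1qa, C1qb, C1qc, Adgre1 and Tyrobp were at 0 in Pdk4fl/fl libraries and had 11 to 187 counts per gene in Pdk4SMKO libraries, while Cd68 had 568, 629 and 281 counts against 155, 63 and 60, so that the summed lists overlapped at 21.4 to 38.0 and 11.8 to 38.7 CPM. The 8 endothelial markers summed to 17.4 to 26.3 against 2.94 to 5.62 CPM, with Cldn5 at 0 throughout, and the 8 lymphocyte markers to 4.16 to 5.07 against 0.049 to 0.132, with Ms4a1 and Nkg7 at 0 throughout. The part of these differences in the results on the TNF family was not tested. In such bulk samples, fewer cells of a type and less RNA per cell cannot be told apart, and the genotype cannot be told apart from the other differences between the cultures.

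The TNF family was split by role. The ligand genes Tnfsf15 and Tnfsf18, the necroptosis kinase gene Ripk3 and the adaptor genes Tradd and Fadd were higher in Pdk4SMKO cells. Traf1, Traf2, Traf7, Birc3 and the feedback inhibitors Tnfaip3 and Tnip1 were lower. Calls required an adjusted p under 0.05 together with at least a 2-fold difference. Of the 55 members, 40 passed the filter on low counts, and 11 of them were lower, 17 higher and 12 not called. The share called was 70% of the members tested, beside 59.3% of all 14085 genes tested, of which 26.5% were lower and 32.8% higher. The genotypes differed across most of the transcriptome, so neither the total nor the split of the family (27.5% lower and 42.5% higher) stands far from that background. By the adjusted p alone, 34 of the 40 differed (85%), beside 79.1% of all genes. The median log2 fold change was 0.28 over the 40 members and 0.12 over all genes. The genotypes did not overlap for 34 of the 40 members (85%), beside 81.8% of all genes. Of the 17 higher members, 8 had under 10 counts in some library and passed the filter through Pdk4SMKO cells, where they were high. Of the 11 lower members, Tnfrsf9 passed it through Pdk4fl/fl cells in the same way. The counts by direction thus lean on that filter. What follows therefore concerns which members moved and how far. Because every test compares 3 libraries with 3, an exact two-sided permutation test of a single gene cannot give a p under 0.1, and the p-values measure the spread between these libraries alone.

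**Figure D1:**
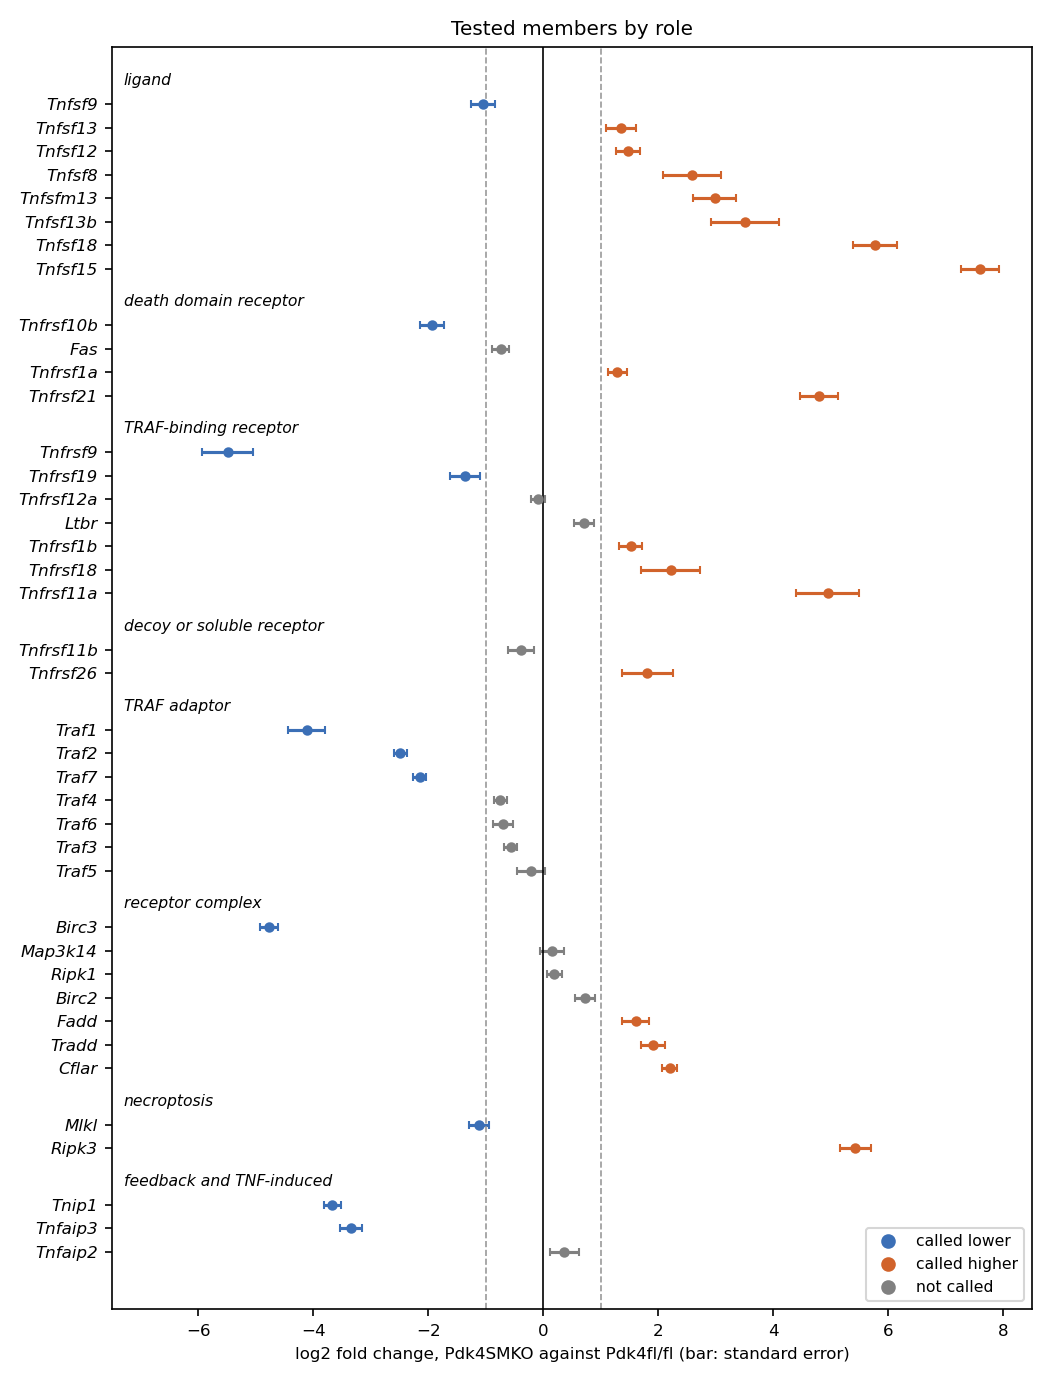
Log2 fold change of Pdk4SMKO against Pdk4fl/fl cells for the 40 members tested, grouped by role, with bars for the standard error and dashed lines at 2-fold in each direction. The points lie between -5.49 for Tnfrsf9 and 7.60 for Tnfsf15, and 5 of the 8 ligands shown passed the filter on low counts through Pdk4SMKO cells alone.

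The promoters of 4 members with large changes are shown because NF-κB is the factor by which TNF receptors control several of these genes. Tnfaip3 and Tnip1 stand for the inhibitors that fell, Birc3 for the signaling genes that fell and Tnfsf15 for the ligands that rose. The sequences are from RefSeq on GRCm38.p6, read on the gene's strand from 250 bases before to 50 bases after the annotated start. Capitals mark matches to the kappa-B consensus and to the AP-1 letters TGANTCA, searched on both strands.
Tnfaip3 (chr10:19015361-19015660, minus strand): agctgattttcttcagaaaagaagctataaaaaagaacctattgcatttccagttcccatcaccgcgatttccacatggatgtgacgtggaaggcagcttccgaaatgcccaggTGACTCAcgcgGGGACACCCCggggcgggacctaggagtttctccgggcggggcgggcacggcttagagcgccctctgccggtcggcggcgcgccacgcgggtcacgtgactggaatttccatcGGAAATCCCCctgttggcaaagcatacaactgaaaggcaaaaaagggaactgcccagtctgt
Tnip1 (chr11:54962891-54963190, minus strand): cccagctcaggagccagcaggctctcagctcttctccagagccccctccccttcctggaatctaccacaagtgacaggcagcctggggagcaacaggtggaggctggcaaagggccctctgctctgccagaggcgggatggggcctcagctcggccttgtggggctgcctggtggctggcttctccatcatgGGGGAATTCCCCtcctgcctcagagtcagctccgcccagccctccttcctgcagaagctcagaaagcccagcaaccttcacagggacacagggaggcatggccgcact
Birc3 (chr9:7873121-7873420, minus strand): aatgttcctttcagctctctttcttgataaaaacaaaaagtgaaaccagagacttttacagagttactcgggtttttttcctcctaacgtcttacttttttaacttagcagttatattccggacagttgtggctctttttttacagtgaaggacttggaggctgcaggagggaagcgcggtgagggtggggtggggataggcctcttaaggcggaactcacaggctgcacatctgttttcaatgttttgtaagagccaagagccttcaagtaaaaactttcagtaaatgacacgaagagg
Tnfsf15 (chr4:63745010-63745309, minus strand): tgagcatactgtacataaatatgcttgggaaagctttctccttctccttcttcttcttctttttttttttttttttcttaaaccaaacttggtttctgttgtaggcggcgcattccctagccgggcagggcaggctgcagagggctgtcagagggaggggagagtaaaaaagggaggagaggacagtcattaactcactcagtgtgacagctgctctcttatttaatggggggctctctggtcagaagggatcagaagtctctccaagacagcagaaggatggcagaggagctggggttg
Tnfaip3 has a second annotated start, whose window is not shown. The Tnfaip3 window held 2 kappa-B matches, at 125 and 12 bases before the start, and an AP-1 match at 136 bases before it. The 3 matches in Tnip1 overlap each other, at 58, 57 and 56 bases before the start, and form 1 palindromic run. No match was found in the windows of Birc3 and Tnfsf15. Such a match says only that the letters occur there. Of the 55 members, 48 had a window, and 5 of these (10.4%) held a kappa-B match, beside 4.32% of the 27025 genes with a window. Besides Tnfaip3 and Tnip1 these were Traf3, Ltb and Tnfrsf8. A match was present in 2 of the 9 lower members with a window and in 0 of the 14 higher members. The AP-1 letters were found in 6 of 48 members (12.5%), beside 7.92% of genes.

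Of the 16 ligand genes, 8 were tested, with 7 higher and 1 lower. Of these, 87.5% were higher and 12.5% lower, beside 32.8% and 26.5% of all genes. Tnfsf15, Tnfsf18, Tnfsf8, Tnfsf13b and Tnfsfm13 were scarce in Pdk4fl/fl cells and passed the filter through the genotype where they were high, and with at least 10 counts in each library required, 3 ligands were tested and 2 (Tnfsf12 and Tnfsf13) were higher. The ligands were led by Tnfsf15, which encodes TL1A, the ligand of death receptor DR3. Tnfsf15 (MGP_C57BL6NJ_G0028794, chromosome 4 from 64892887 to 64912587 in the strain annotation of the files) was at 0.467, 0.11 and 0.53 CPM in the Pdk4fl/fl libraries. In the Pdk4SMKO libraries it was at 79.3, 71.5 and 55.2 CPM. With 2 to 7 reads in each Pdk4fl/fl library and 1126 to 1806 in each Pdk4SMKO library, the gene went from near the detection floor (3 counts, 0.132 to 0.227 CPM) to the ligand with the highest mean level per length, although Tnfsf18 overlapped with it on that scale. The log2 fold change was 7.60 (SE 0.33, adjusted p = 3.09e-08), the largest among the members. Tnfsf18 (chromosome 1 from 172423416 to 172434051), the ligand of GITR, was at 0.933, 0.549 and 0.53 CPM in Pdk4fl/fl and at 54.4, 30.2 and 25.5 CPM in Pdk4SMKO libraries. Its genotypes were far apart, although replicate 1 of Pdk4SMKO stood well above the other two. The log2 fold change was 5.76 (SE 0.39, adjusted p = 4.13e-07) with that library and 5.37 without it. The summed mesothelial markers were also highest in that library, at 1359 CPM against 736 and 836 in the others. So were those of macrophages (38.7 against 16.2 and 11.8 CPM), smooth muscle (954 against 842 and 723) and endothelium (5.62 against 2.94 and 4.02). Xist was also highest there, but the fibroblast markers were not. The lymphocyte sums, at 0.132, 0.0995 and 0.0491 CPM, lay at or under the floor of 3 counts and give no order. The part of any of these differences in the level of Tnfsf18 was not tested.

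Tnfsf12, which encodes the cytokine TWEAK, was at 4.6, 3.62 and 4.99 CPM in Pdk4fl/fl and at 10.7, 13.6 and 12.2 CPM in Pdk4SMKO libraries. The libraries of each genotype lay close together and did not overlap (log2 fold change 1.47, SE 0.21, adjusted p = 9.03e-05). Tnfsf13, which encodes APRIL, and Tnfsfm13, the read-through transcript of both genes, rose too, by 1.35 and 2.98 on the log2 scale. These 3 genes lie on the same strand of chromosome 11 between 72262643 and 72279055 and share sequence, and an antisense gene, Tnfsf13os, overlaps them, so that the counting may have split reads among them. The remaining ligands that rose were scarce. Tnfsf8, which encodes the ligand of CD30, had 2 to 16 counts per library in Pdk4fl/fl and 56 to 73 in Pdk4SMKO cells. Its log2 fold change of 2.59 became 3.30 without replicate 2 of Pdk4fl/fl. Tnfsf13b, which encodes the B cell survival factor BAFF, had 1 count in each Pdk4fl/fl library and 15 to 21 in the Pdk4SMKO libraries, a ratio of 12.5 with an exact 95% interval of 4.04 to 62.5 that covers counting error alone.

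Tnfsf9, the ligand of CD137, was the ligand with the highest level per length in Pdk4fl/fl cells. It was at 21.2, 14.8 and 22.5 CPM in these and at 7.77, 9.9 and 10.6 CPM in Pdk4SMKO libraries. The genotypes did not overlap, but the difference lay at the limit for a call (log2 fold change -1.05, SE 0.21, adjusted p = 0.000921). The call was lost under 7 of 14 alternatives, among them library size alone (-0.44) and the fits without replicate 1 or replicate 3 of Pdk4fl/fl (-0.98 and -0.94) and without replicate 1 of Pdk4SMKO (-0.91). Tnf itself was almost absent. It had 0, 4 and 0 counts in Pdk4fl/fl and 0, 3 and 0 in Pdk4SMKO libraries and was not tested, so that a difference in Tnf was not detectable at this depth. Lta and Ltb, its neighbours on chromosome 17, had 0 to 5 counts per library. Fasl had 9, 6 and 9 counts in Pdk4fl/fl libraries and 0 in every Pdk4SMKO library, at least 3.76-fold lower against a floor of 3 counts per library, but it did not pass the filter. Tnfsf11, which encodes the osteoclast factor RANKL, had 1, 9 and 0 counts against 0, 0 and 1. Tnfsf4 and Tnfsf10 had at most 4 counts in any library and Tnfsf14 had 0 in all 6.

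The death domain receptors differed in direction. Tnfrsf1a (chromosome 6 from 132099144 to 132112306), the type 1 receptor for TNF, was at 100.3, 104 and 89.3 CPM in Pdk4fl/fl libraries. It was at 188, 293 and 237 CPM in Pdk4SMKO libraries. All 3 of these lay above the highest Pdk4fl/fl library, and the log2 fold change was 1.29 (SE 0.16, adjusted p = 4.27e-05). Tnfrsf21 (chromosome 17 from 45835952 to 45913660), which encodes death receptor DR6, was at 3.4, 2.42 and 2.88 CPM in Pdk4fl/fl and at 44.7, 106 and 89.7 CPM in Pdk4SMKO libraries. The increase was the largest of any receptor at 10 CPM or more (log2 fold change 4.80, SE 0.34, adjusted p = 5.87e-07), and here replicate 1 of Pdk4SMKO was the lowest of its genotype. Tnfrsf10b (chromosome 14 from 67252475 to 67270642), the mouse receptor for TRAIL, moved the other way, from 73.9, 84.6 and 78.4 CPM in Pdk4fl/fl to 27.9, 15.9 and 18 CPM in Pdk4SMKO libraries. The ranges were well separated (log2 fold change -1.94, SE 0.20, adjusted p = 9.19e-06). Fas, the receptor for the Fas ligand, had the highest level per length of this group in Pdk4fl/fl cells. Fas was at 88.6, 82 and 95.7 CPM against 42.9, 57 and 59.4 CPM, a log2 fold change of -0.74 (SE 0.15, adjusted p = 0.000942) that stayed under the 2-fold limit. Tnfrsf25, the receptor for TL1A, had 1 to 12 counts in Pdk4fl/fl and 5 to 16 in Pdk4SMKO libraries and was not tested.

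Among the receptors that bind TRAF proteins, Tnfrsf9 showed the largest decrease. Tnfrsf9 (chromosome 4 from 160503569 to 160539038), which encodes CD137, was at 8.2, 10.7 and 11.7 CPM in Pdk4fl/fl and at 0.439, 0.0995 and 0.0981 CPM in Pdk4SMKO libraries. The latter correspond to 10, 2 and 2 counts, so that the gene passed the filter on low counts through Pdk4fl/fl cells. The log2 fold change was -5.49 (SE 0.45, adjusted p = 1.6e-06) and -6.57 without replicate 1 of Pdk4SMKO. Both CD137 and its ligand Tnfsf9 were thus lower, each with an antisense gene across its span. Tnfrsf1b (chromosome 4 from 153577277 to 153613116), the type 2 receptor for TNF, was at 35.6, 38.3 and 21.7 CPM in Pdk4fl/fl and at 78.1, 100.1 and 96.2 CPM in Pdk4SMKO libraries. Its log2 fold change of 1.52 (SE 0.21, adjusted p = 6.42e-05) was on the same side as that of Tnfrsf1a. Tnfrsf12a, which encodes Fn14, the receptor for TWEAK, had the highest level per length of all receptors in both genotypes. It was at 203, 219 and 225 CPM against 225, 192 and 189 CPM, with overlapping genotypes and a log2 fold change of -0.09 (SE 0.12, adjusted p = 0.476) that turned positive under other scalings. Ltbr, the receptor for lymphotoxin, was at 28.1 to 45.5 CPM against 57.6 to 64.8 CPM (log2 fold change 0.71, SE 0.17) and was not called.

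The other TRAF-binding receptors that were called had under 10 CPM in both genotypes. Tnfrsf11a, which encodes RANK, had 1, 1 and 7 counts in Pdk4fl/fl and 117 to 148 in Pdk4SMKO libraries. Its log2 fold change was 4.94 (SE 0.55, adjusted p = 1.53e-05), and 6.55 without replicate 3 of Pdk4fl/fl. Tnfrsf18, which encodes GITR and overlaps the antisense gene Gm16008, had 3 counts in each Pdk4fl/fl library and 13 to 25 in the Pdk4SMKO libraries. The ratio of the sums was 4.73, with an exact 95% interval of 2.33 to 10.9. Tnfrsf19 was lower, at 4.01 to 4.62 CPM against 1.54 to 1.72 CPM (log2 fold change -1.37, SE 0.27). The receptors Tnfrsf4, Tnfrsf8, Tnfrsf13b, Tnfrsf14 and Tnfrsf17, best known from lymphocytes, had 0 to 15 counts per library and did not pass the filter.

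Of the 3 decoy or soluble receptors, Tnfrsf11b had the highest level. It encodes osteoprotegerin, which binds RANKL, and was at 39.5, 39.9 and 43 CPM against 43.7, 22.7 and 26.9 CPM. The genotypes overlapped through replicate 1 of Pdk4SMKO, and the log2 fold change of -0.39 (SE 0.22, adjusted p = 0.125) was not called. Tnfrsf26, on chromosome 7, was higher, with 7 to 21 counts against 42 to 106 (log2 fold change 1.81, SE 0.44), again highest in replicate 1 of Pdk4SMKO. Tnfrsf23, which encodes a decoy receptor for TRAIL and lies 9.73 kb from Tnfrsf26, had 0 counts in all libraries. An unnamed counted gene on the same strand overlaps its span, so these counts need not mean that it was absent. Over all 20 receptors, 3 were lower, 6 higher, 4 not called and 7 not tested. The share called was 69.2% of those tested, beside 59.3% of all genes.

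**Figure D2:**
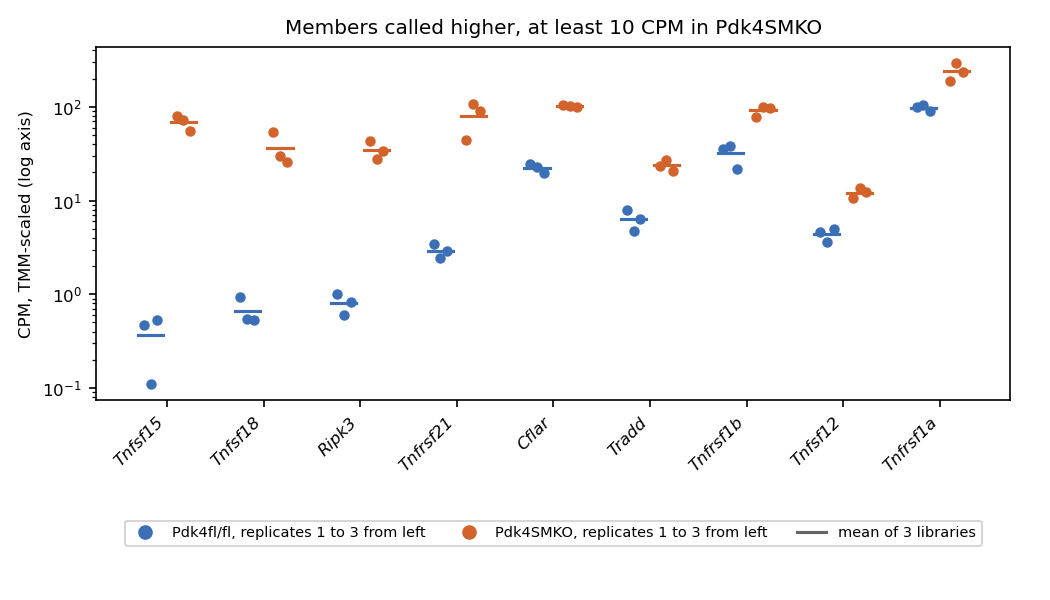
CPM on a log axis for the 9 higher members with a mean of at least 10 CPM in Pdk4SMKO cells, with points for the libraries and bars for the mean of 3. Tnfsf15, Tnfsf18 and Ripk3 were at or under 1 CPM in every Pdk4fl/fl library and at 25.5 CPM or more in every Pdk4SMKO library.

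Of the 7 TRAF adaptors, 3 were lower and none was higher. The share called was 42.9%, which is under the 59.3% of all genes. Traf1 (chromosome 2 from 34528403 to 34549191), an NF-κB target that joins TRAF2 at the receptors, was at 43.4, 58.2 and 40.9 CPM in Pdk4fl/fl and at 4.35, 1.94 and 1.82 CPM in Pdk4SMKO libraries. The lowest Pdk4fl/fl library lay far above the highest Pdk4SMKO library, and the log2 fold change was -4.12 (SE 0.32, adjusted p = 1.07e-06). Traf2 (chromosome 2 from 24157041 to 24187434), the adaptor that brings the cIAP proteins to the type 1 and type 2 receptors, was at 210.4, 224 and 215 CPM against 35.5, 40.5 and 40.0 CPM. The libraries of each genotype were nearly equal (log2 fold change -2.49, SE 0.12, adjusted p = 5.04e-08), and an unnamed antisense gene lies across the span. Traf7 (chromosome 17 from 24549505 to 24570533), which lacks the TRAF domain of its relatives, had the highest level per length of the TRAF genes in Pdk4fl/fl cells. It was at 422, 422 and 383 CPM against 95.5, 93.9 and 86.2 CPM, a log2 fold change of -2.15 (SE 0.12, adjusted p = 1.04e-07), with part of its span shared with Rab26 on the same strand and Caskin1 on the other.

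The other 4 TRAF genes were not called. Traf4, which had the highest level per length of the TRAF genes in Pdk4SMKO cells, was at 117, 119.5 and 107 CPM against 69.5, 64.2 and 70.7 CPM (log2 fold change -0.75, SE 0.11, adjusted p = 0.000143). Traf6, the adaptor of the CD40, RANK and Toll-like receptor pathways, had a log2 fold change of -0.71 (SE 0.17), and Traf3, an inhibitor of the kinase NIK, one of -0.57 (SE 0.11). Both were separated between the genotypes but under the 2-fold limit. Traf5 overlapped between the genotypes at 6.89 to 8.73 and 5.14 to 8.61 CPM. All 7 values were negative under TMM scaling. With library size alone, Traf3 and Traf5 turned positive at 0.036 and 0.38.

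**Figure D3:**
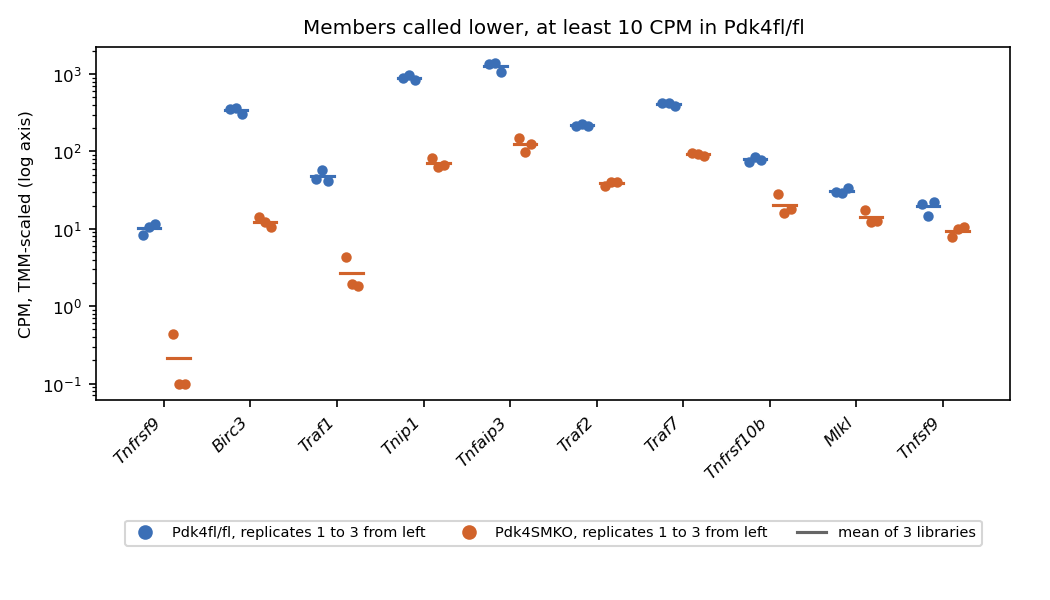
CPM on a log axis for the 10 lower members with a mean of at least 10 CPM in Pdk4fl/fl cells, with points for the libraries and bars for the mean of 3. Each gene has all Pdk4fl/fl libraries above all Pdk4SMKO libraries, with Tnfsf9 the closest.

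In the receptor complex, the IAP genes parted. Birc3 (chromosome 9 from 4880398 to 4908457), which encodes cIAP2 and is itself an NF-κB target, was at 350.2, 362 and 308 CPM in Pdk4fl/fl libraries and at 14.3, 12.2 and 10.6 CPM in Pdk4SMKO libraries. The log2 fold change was -4.78 (SE 0.16, adjusted p = 1.15e-08), the lowest adjusted p of any member. Birc2, which encodes cIAP1 and lies 11.4 kb away with no protein-coding gene between, was at 34.8, 31.2 and 46.5 CPM against 53.5, 64.3 and 67.9 CPM. It was not called (log2 fold change 0.73, SE 0.17, adjusted p = 0.00258). Together with Traf2, these are the genes that place ubiquitin chains on RIPK1, and Ripk1 itself overlapped between the genotypes at 38.3 to 42 and 39.5 to 49.4 CPM (log2 fold change 0.19, SE 0.13, adjusted p = 0.207).

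The death domain adaptors were higher. Tradd, which links the type 1 receptor to TRAF2 and RIPK1, was at 8, 4.72 and 6.36 CPM in Pdk4fl/fl and at 23.4, 27.1 and 20.9 CPM in Pdk4SMKO libraries (log2 fold change 1.91, SE 0.21, adjusted p = 1.67e-05). Fadd, which links Fas to caspase-8, had 28 to 44 counts against 149 to 160 (log2 fold change 1.60, SE 0.23), with the antisense gene Faddos across its span. Cflar (chromosome 1 from 60972615 to 61017995), which encodes cFLIP, the inhibitor of caspase-8, was at 24.3, 22.6 and 19.7 CPM against 103, 102 and 99.4 CPM. These were among the tightest values of the family, and the log2 fold change was 2.20 (SE 0.13, adjusted p = 1.6e-07). Map3k14, which encodes NIK, the kinase of noncanonical NF-κB signaling, overlapped at 18.7 to 32.8 and 26.9 to 33.8 CPM and was not called. Of the members that were not called, Fas, Traf3, Traf5, Ripk1 and Map3k14 share part of their span with another counted gene.

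The 2 necroptosis genes went in opposite directions. Ripk3 (chromosome 14 from 52324750 to 52328611), the kinase of this form of death, was at 1.00, 0.604 and 0.832 CPM in Pdk4fl/fl and at 43, 27.5 and 33.7 CPM in Pdk4SMKO libraries. Its counts were 11 to 15 per library against 552 to 980 (log2 fold change 5.43, SE 0.27, adjusted p = 6.43e-08). Mlkl, the substrate of RIPK3 that permeabilizes the membrane, was at 29.7, 29 and 33.6 CPM against 17.7, 12.2 and 12.5 CPM. The genotypes did not overlap (log2 fold change -1.12, SE 0.18, adjusted p = 0.000189), and the call was lost with upper-quartile or library-size scaling, at -0.91 and -0.51. Per length, Ripk3 rose from 0.413 to 17.7 CPM per kb while Mlkl went from 13.4 to 6.14 CPM per kb, so the order of the pair was reversed.

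The feedback inhibitors Tnip1 and Tnfaip3 ranked 1 and 3 among the members by level per length in Pdk4fl/fl cells, and both fell. Tnfaip3, which encodes the ubiquitin-editing enzyme A20 and has the kappa-B matches shown above, was at 1338, 1388 and 1078 CPM in Pdk4fl/fl and at 149, 98.2 and 126 CPM in Pdk4SMKO libraries. The log2 fold change was -3.35 (SE 0.19, adjusted p = 1.26e-07). Tnip1, which encodes the A20 partner ABIN1, was at 892, 979 and 832 CPM against 81.6, 63 and 67.2 CPM. This was a log2 fold change of -3.67 (SE 0.15, adjusted p = 2.53e-08), with an unnamed antisense gene across the span. Tnfaip2, another gene that TNF induces, overlapped at 18.2 to 38.5 and 31.8 to 45.2 CPM and was not called (log2 fold change 0.36, SE 0.25, adjusted p = 0.207).

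**Figure D4:**
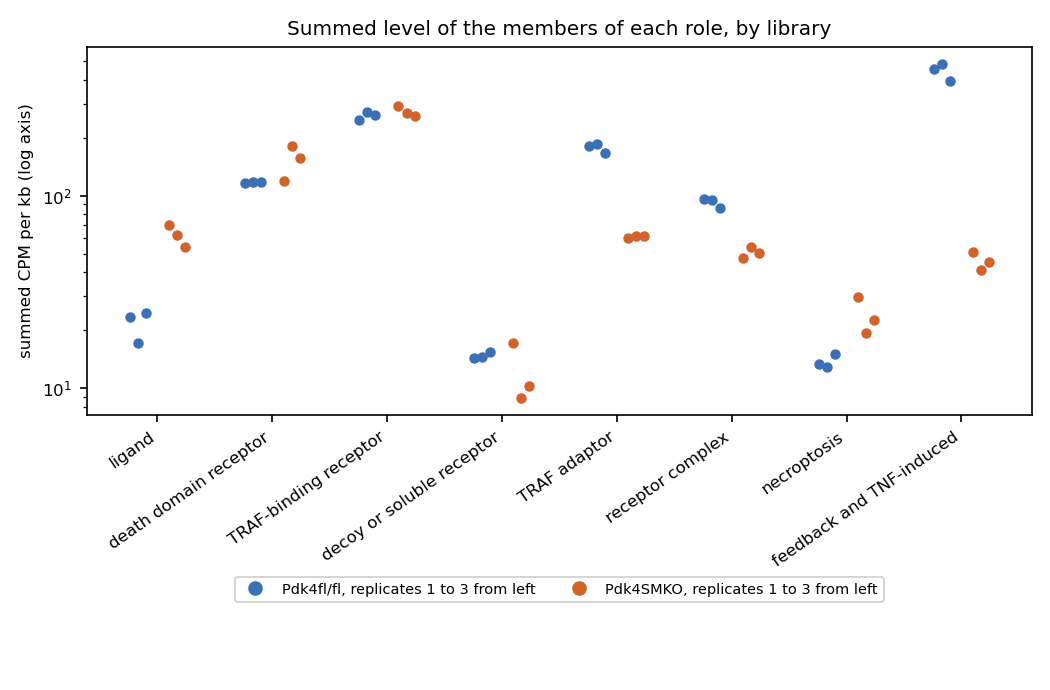
Summed CPM per kb of gene length, on a log axis, of all members of each role in each library. The genotypes are apart for ligands, TRAF adaptors, receptor complex, necroptosis and feedback genes and overlap for TRAF-binding and decoy receptors. The death domain receptors are barely apart, at 116.4 to 117.96 against 119.2 to 180.2 CPM per kb.

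Summed per length, the roles moved against each other. The feedback genes summed to 395 to 484 CPM per kb in Pdk4fl/fl libraries and to 41.0 to 50.7 CPM per kb in Pdk4SMKO libraries, and the TRAF adaptors to 167 to 186 against 60.0 to 61.8 CPM per kb. The receptor complex genes summed to 86.1 to 96.3 against 47.5 to 53.9 CPM per kb, and of this mean sum Birc3 alone made up 67.9 and 2.47 CPM per kb. In contrast, the ligands summed to 17.2 to 24.7 against 53.7 to 70.0 CPM per kb. All 20 receptors together summed to 378 to 403 against 426 to 456 CPM per kb under TMM scaling and to 310.0 to 326 against 525 to 552 CPM per kb with library size alone. These sums are descriptions without a test. With library size alone, the receptor complex genes summed to 67.4 to 80.6 against 59.6 to 65.3 CPM per kb. The direction of the decoy receptors was then reversed, and that of the other roles was not. The TRAF-binding receptors, which overlapped under TMM scaling, were apart with library size alone, at 206 to 219 against 320 to 367 CPM per kb.

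The order of the members by level per length changed accordingly. In Pdk4fl/fl cells the leading members were Tnip1 (262 CPM per kb), Tnfrsf12a (224), Tnfaip3 (175), Traf7 (69.6) and Birc3 (67.9 CPM per kb). In Pdk4SMKO cells they were all receptors, with Tnfrsf12a at 209.9, Tnfrsf1a at 92.4, Ltbr at 36.5, Fas at 29.5 and Tnfrsf1b at 24.0 CPM per kb. Birc3 went from rank 5 to rank 29 and Tnfsf15 from rank 42 to rank 7 of the 55 members.

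**Figure D5:**
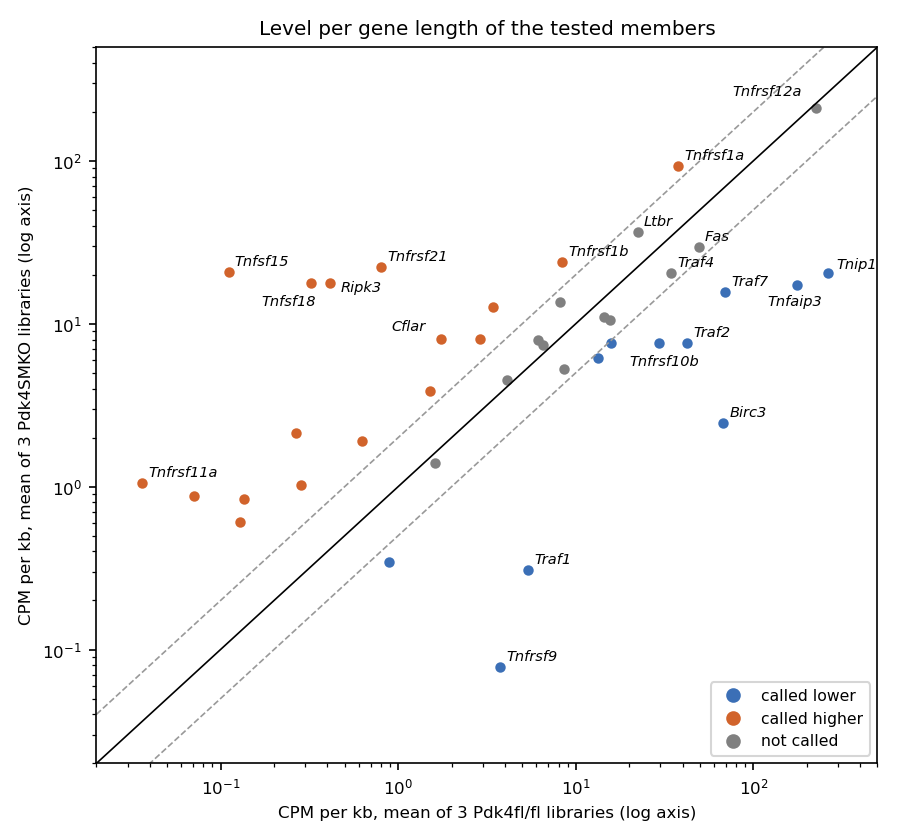
Mean CPM per kb of gene length in Pdk4fl/fl (horizontal) and Pdk4SMKO cells (vertical) for the 40 members tested, both axes logarithmic, with the line of equality and dashed lines at 2-fold. Birc3, Traf1 and Tnfrsf9 lie far below the line and Tnfsf15, Tnfsf18 and Ripk3 far above it, while Tnfrsf12a lies on it at the top.

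Several members lie side by side in the genome, and neighbours did not always move alike. Tnfsf15 and Tnfsf8 are 89.2 kb apart on chromosome 4 with no protein-coding gene between them, and both were higher. On chromosome 1, Tnfsf18 lies 85.2 kb from Tnfsf4, which had 0 to 4 counts per library in both genotypes, and 296 kb from Fasl, which was detected in Pdk4fl/fl cells alone. Tnfrsf1b was higher, while Tnfrsf8, 23.4 kb away, had 0 to 6 counts per library. Tnfrsf1a and Ltbr are 44.7 kb apart on chromosome 6, and of these only Tnfrsf1a passed the 2-fold limit, although the difference between their changes was not tested.

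Other genes of the pathway were counted from a list of 43 that are no members of the family. All 43 were tested, with 12 lower, 12 higher and 19 not called. The share called was 55.8%, beside 59.3% of all genes. By the adjusted p alone, 20 were lower and 16 higher, where 79.1% of all genes differed in either direction. The list had a median log2 fold change of -0.20 beside 0.12 over all genes. The 3 with the lowest adjusted p were NF-κB genes that were lower. Relb, the subunit of the noncanonical pathway, had 7297 to 12570 counts against 439 to 543 (log2 fold change -4.71, SE 0.15). Nfkbia, which encodes the inhibitor IκBα, had a log2 fold change of -3.22 (SE 0.12), and Rel, which encodes c-Rel, one of -3.69 (SE 0.14). Rela, the p65 subunit, had the largest level per length of the list and was lower too, at 1376 ± 247 CPM in Pdk4fl/fl and 130.2 ± 13.2 CPM in Pdk4SMKO cells (SD, n = 3, log2 fold change -3.40, SE 0.17). Of a second list of 25 genes that TNF is known to induce, 24 were found and 22 tested, with 13 lower, 5 higher and 4 not called. The lower genes were 59.1% and the higher ones 22.7%, beside 26.5% and 32.8% of all genes. The median log2 fold change was -1.89. Where at least 10 counts were required in every library, 7 were lower and 6 higher, so the lean toward lower genes depended on the filter. The genes of this list with the lowest adjusted p were chemokines, namely Cxcl10 with 2056 to 2722 counts against 3 to 9 (log2 fold change -8.86, SE 0.24), Ccl5 with 2786 to 3749 against 4 to 10 (-9.35, SE 0.34) and Cxcl2 with 164 to 279 against 2 to 3 (-6.67, SE 0.31). These chemokines were scarce in Pdk4SMKO cells and passed the filter on low counts through Pdk4fl/fl cells, where they were high. Mmp3, the matrix protease with the largest level per length of this list in Pdk4SMKO cells, went the other way, from 122 to 484 counts in Pdk4fl/fl to 10638 to 11450.0 in Pdk4SMKO libraries (log2 fold change 4.83, SE 0.39).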

How the data were processed

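RNA of Ang II-treated MASMCs was sequenced in 6 libraries, 3 of Pdk4fl/fl and 3 of Pdk4SMKO cells, grouped by the genotype in the labels. The values deposited by the authors are raw counts, reads assigned to each gene and not normalized, and all 6 libraries stand in the same table. The paper names paired-end reads and the NEBNext Ultra kit, the labels a SMARTER kit, and the submitters' processing notes the build GRCm 39. The gene identifiers are those of the C57BL/6NJ strain annotation, except for 625 of 41721. The aligner, the counting program and the use of strand are not given in the sources used here, so reads of overlapping or antisense genes cannot be told apart. Coordinates of members are as the table gives them, while promoters are on GRCm38.p6 and were matched by symbol alone.

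The analysis used edgeR 4.0.16 in R 4.3.3. Genes were filtered with filterByExpr, scaled by TMM and tested on genotype with the quasi-likelihood test, with Benjamini-Hochberg adjustment over 14085 genes. The threshold for a call was an adjusted p of 0.05 with an absolute log2 fold change of 1 or more. CPM are counts scaled with the TMM factors, and CPM per kb divides them by the gene length in the table. A count of 3 per library was taken as the floor, and floors and counting intervals cover counting error only. No 2 libraries agreed within sampling noise.

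The members, their roles and the lists were chosen with earlier results of these data known. Every member may be named. Values by library are given for each called member whose mean reached 10 CPM in either genotype, for Tnf, and for the member with the highest level per length in each role, and the rest are given by range and count. Of the other lists, the 3 called genes with the lowest adjusted p and the largest level are named, with Pdk4 as the check of the labels. Xist, Myh11, single marker genes and the genes at 0 were chosen after their values were seen. Alternatives were DESeq2 1.42.0, scaling by RLE, upper quartile or library size, other filters, the adjusted p alone, a replicate block and leaving out each library.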

Additional observations from a re-analysis of the deposited data

How the results depend on the processing

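Of the 40 members tested, 30 kept direction and call under all of the 13 or 14 alternative fits that could be run for each. Of 551 alternative values, 532 had the same direction and call. The count of higher members went from 17 to 9 where at least 10 counts were required in every library, a filter that removes genes near 0 in a genotype, and that of lower members from 11 to 6 where members whose span overlaps another counted gene were left out, a setting chosen after seeing the data (12 were then higher). In the list of pathway genes, 20 in place of 12 were lower and 16 in place of 12 higher by the adjusted p alone. In that of TNF-induced genes, 7 in place of 13 were lower and 6 in place of 5 higher under the filter of 10 counts. Leaving out 1 library at a time gave 10 to 11 lower and 17 higher members.

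Scaling mattered most for small changes, since TMM factors were 0.784 to 0.838 in Pdk4fl/fl and 1.21 to 1.26 in Pdk4SMKO libraries. The median log2 fold change of all genes shifted by 0.61 with library size alone and by 0.21 with upper-quartile factors. Without a filter it shifted by 0.21 as well, but that median was taken over 24025 genes in place of 14085. With library size alone, 2390 genes were lower and 6184 higher in place of 3733 and 4616, and 8 members were lower and 19 higher. The log2 fold change of Tnfrsf12a changed sign to 0.51 with library size, 0.12 with upper-quartile factors and 0.0045 under the strict filter of 10 counts. With library size alone, those of Traf3 (0.036), Traf5 (0.38) and Tnfrsf11b (0.22) changed sign too, Tnfrsf19 lost its call at -0.76, and Birc2 (1.33) and Ltbr (1.31) gained one. That of Map3k14 ranged from -0.062 to 0.31 when 1 library was left out. The cause of these changes was not tested.

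With the replicate number as a block, 11 members were lower and 17 higher, the call of each member was as without the replicate block, and the 43 pathway genes gave 12 lower and 12 higher and the TNF-induced genes 13 lower and 6 higher. Deviations of same-numbered libraries from their genotype means correlated at 0.0477, 0.0947 and 0.234, and not every library correlated best with its own number, so the numbers were not taken as pairs.

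Members with few reads, Tnf among them, set the limit of depth: 15 of the 55 were not tested, and 5 had at most 3 counts in every library.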

Other observations

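Genes of the TNF family that carry older names were outside the members. Of 10 such genes, 6 passed the filter on low counts, with 2 lower and 3 higher. The share called was 83.3% of these 6, beside 59.3% of all genes. Eda2r, the X-linked receptor for ectodysplasin A2, had 176, 195 and 162 counts in Pdk4fl/fl and 1364, 796 and 1059 in Pdk4SMKO libraries (log2 fold change 2.13, SE 0.18, adjusted p = 1.78e-06). Its ligand gene Eda, also on the X chromosome, had 1, 0 and 0 counts against 49, 17 and 15, highest in replicate 1 of Pdk4SMKO. Edar, the other ectodysplasin receptor, was lower, with 11, 20 and 28 counts against 2, 3 and 3 (log2 fold change -3.29, SE 0.58, adjusted p = 0.000436). Cd40, the receptor for CD40 ligand, had 18, 19 and 24 counts against 15, 0 and 2 (log2 fold change -2.32, SE 0.79, adjusted p = 0.0197), so its genotypes were separated by few reads and by 1 library least of all. Cd40lg had 0 counts in all libraries. Ngfr, the low-affinity nerve growth factor receptor, was higher with 4, 1 and 0 counts against 17, 10 and 10, and Relt was not called.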
